A study of Homo sapiens with 8 samples.

Results

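The colony-stimulating factor 1 receptor gene CSF1R and 7 other genes of the myeloid lineage (SPI1, CEBPA, CD33, MPO, CSF3R, ITGAM and LYZ) were followed in NALM6 cells, 8 of 27432 genes in the deposited tables. The genes were chosen by name with measured values in view, because CSF1R had a high read level with little converted signal, so the levels and conversion rates below are descriptions and their height is not a finding. For each gene the transcript row with the highest mean read level was used. NALM6 is a human B-cell precursor acute lymphoblastic leukaemia line, engineered here to express HMGN1, a nucleosome-binding chromatin protein, when doxycycline is added. RNA was measured by SLAM-seq, in which 4-thiouridine fed to the cells enters newly made RNA and is read as a T-to-C change in sequencing, so that converted reads mark RNA made during labelling.

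The libraries comprised 2 of the HMGN1 S20,24E mutant line, deficient in nucleosome binding, with doxycycline (induced mutant A and B), 3 of the wild-type HMGN1 line with doxycycline (induced wild type A, B and C) and 3 of that line given vehicle alone (vehicle A, B and C). All cells carried endogenous HMGN1, and all 8 libraries were 4-thiouridine labelled at 100 µM for the last 5 h of a 6 h treatment, with doxycycline at 100 ng/ml in the induced groups. Because no vehicle library of the mutant line was analysed here, the effect of the mutant and the difference between lines cannot be told apart in the comparison of induced mutant with vehicle. The same holds for the induced mutant against the induced wild type. No doxycycline-treated library without the inducible gene was analysed here. In the induced groups against vehicle, doxycycline and the induced HMGN1 therefore cannot be told apart. Neither the promoter behind the inducible gene nor the number of clones per line is given in the labels. Library depth, recovered from the value of 1 read, was 7.99 to 17.7 M reads, and 3 reads correspond to 0.169 to 0.376 CPM, the unit of the all-read table. HMGN1 itself had 223 and 200 CPM in the induced mutant, 252, 217 and 317 CPM in the induced wild type, and 191, 153 and 145 CPM in vehicle. Of 16 precursor B-cell markers, the 15 with a row all had a mean of at least 10 CPM and summed to 1739 to 2033 CPM per library. The erythroid and megakaryocyte markers summed to 0.259 to 1.23 CPM. Markers of T and NK cells summed to 21.8 to 28.6 CPM, with ZAP70 at 18.1 CPM, LCK at 3.79 CPM and NKG7 at 2.15 CPM. The B-cell label of the line thus has its markers, and the myeloid genes were read in a cell type that is not myeloid.

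CSF1R is the receptor tyrosine kinase through which CSF1 and IL-34 drive the survival and differentiation of monocytes and macrophages. Its transcription in that lineage depends on PU.1, the ETS-family factor encoded by SPI1, and on C/EBP alpha, the leucine-zipper factor encoded by CEBPA. In B-cell precursors PU.1 is also present at a lower dose, and the other genes here are textbook products of granulocytes and monocytes. CSF1R is known to start from an upstream first exon, used in trophoblast, and from an internal promoter, used in macrophages.

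Both starts have an entry in the RefSeq promoter table (build GRCh38.p14). They are shown because the 3 CSF1R transcript rows fall into the same division, and their levels differ. Each line gives the 250 bases before a start as RefSeq places it, on the minus strand of chromosome 5. The upstream window is chr5:150113366-150113615 and the internal one is chr5:150086555-150086804. Capitals mark GAGGAA, a purine-rich core of the kind bound by PU.1, searched for on both strands.
CSF1R upstream start: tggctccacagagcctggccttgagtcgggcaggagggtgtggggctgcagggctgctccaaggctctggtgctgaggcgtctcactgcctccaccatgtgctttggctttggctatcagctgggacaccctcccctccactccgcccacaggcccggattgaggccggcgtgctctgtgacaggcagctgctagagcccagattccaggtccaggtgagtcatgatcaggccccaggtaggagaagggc
CSF1R internal start: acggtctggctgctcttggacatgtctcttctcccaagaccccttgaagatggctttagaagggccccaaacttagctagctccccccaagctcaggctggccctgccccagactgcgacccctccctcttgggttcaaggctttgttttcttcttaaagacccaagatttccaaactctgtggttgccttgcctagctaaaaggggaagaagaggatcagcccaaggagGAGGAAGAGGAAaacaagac
The internal window held 2 adjoining, non-overlapping matches and the upstream window held 0. GENCODE 29 places the start of a shorter CSF1R transcript at base 150086590, so that 36 bases of the internal window, with both matches, lie inside that transcript and not before its start. GAGGAA occurred in 23.6% of 35116 windows of the same length, so a single match is common. Of the 8 genes, 5 had an entry in that table (CSF1R, CEBPA, CD33, CSF3R and ITGAM), and 4 of these had a match in at least 1 window, with none in that of CEBPA.

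The longest CSF1R row, whose transcript begins at the upstream start, had 338 and 426 CPM in induced mutant A and B, 435, 407 and 360 CPM in induced wild-type libraries A, B and C, and 512, 424 and 417 CPM in vehicle A, B and C. The groups overlapped, with the highest value in vehicle A and the lowest in induced mutant A. These values rest on 3252 to 7399 reads per library and 39760 reads in all. The 2 shorter CSF1R rows held the same reads as each other. They had 3 and 1 reads in induced mutant A and B, 0, 0 and 5 reads in induced wild-type libraries A, B and C, and 1, 2 and 1 reads in vehicle A, B and C. No library therefore had more than 5 reads in them. Their 13 reads are 0.0327% of those of the longest row (exact binomial 95% interval 0.0174% to 0.0559%, which covers counting error only).

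In GENCODE 29 (build GRCh38), joined by transcript accession for annotation only because the files use hg19 (GRCh37), the longest CSF1R transcript lies on the minus strand at chr5:150053291-150113372. It spans 60.1 kb with 22 exons. A shorter, non-coding transcript that matches 1 of the 2 shorter rows spans 33.3 kb and ends at base 150086590, so it leaves out the upstream first exon of 112 bases and the first intron of 26.7 kb. Rows in these tables appear to count reads over the whole span of a transcript. Among transcripts that average 20 CPM or more, 197 pairs share a span while their exon lengths differ by over 300 bases, and 196 of these pairs carried the same values. Counted in this way, nearly all reads of the longest CSF1R row lie in the upstream part of the gene that the shorter rows leave out.

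A processed pseudogene of the ribosomal protein gene RPL7, RPL7P1, lies in that first intron, at chr5:150094302-150095048 (747 bases) on the strand opposite to CSF1R. It overlaps 0 bases of CSF1R exons and lies outside the shorter transcript. Processed pseudogenes are reverse-transcribed copies of an mRNA put back into the genome. RPL7 encodes a protein of the large ribosomal subunit, and its mRNA is abundant in growing cells. RPL7P1 matched the RPL7 mRNA at 99.6% of 747 aligned positions, with 3 mismatches and a longest exact run of 360 bases. Of all 75-base windows of that mRNA, 43.6% occur exactly in RPL7P1. Among the annotated RPL7 pseudogenes, as aligned on their annotated strand, it was second in identity, after RPL7P9, which lies in no host gene. A small RNA of the RF00019 family is also annotated inside CSF1R on the opposite strand. The deposited tables give no positions of reads, so the part of RPL7P1 in the CSF1R value was not tested on reads.

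RPL7 itself had 271 and 326 CPM in induced mutant A and B, 339, 340 and 308 CPM in induced wild-type libraries A, B and C, and 394, 370 and 335 CPM in vehicle A, B and C. The library with the highest RPL7 value, vehicle A, was also the highest for CSF1R, and the lowest, induced mutant A, was also the lowest. The ratio of the longest CSF1R row to RPL7, taken on CPM and not per length, stayed between 1.15 and 1.31 in all 8 libraries. It was 1.28 ± 0.0408 in the induced mutant (SD, n = 2), 1.22 ± 0.0608 in the induced wild type (SD, n = 3) and 1.23 ± 0.0772 in vehicle (SD, n = 3). Over the 8 libraries the coefficient of variation of the ratio was 4.90%, against 12.6% for CSF1R and 11.1% for RPL7 alone. No ratio of CSF1R to another gene was taken for scale, so whether this is particular to RPL7 was not tested.

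The genes whose all-read values were most like those of CSF1R were found by Pearson's r on log2(CPM + 1) over the 8 libraries, among 6294 genes with a mean of at least 10 CPM. All these values share library depth, and r is given as a description. Those named here are WDR77 (r = 0.993), DECR2 (r = 0.993), TMEM14B (r = 0.991) and RDBP (r = 0.987), followed by RPS18, NBEAL1, RPL23P8, MPST and DGKI, down to r = 0.983. RPS18 encodes a protein of the small ribosomal subunit, and RPL23P8 is a ribosomal protein pseudogene. RPL7 had r = 0.919 and was number 345, whereas SPI1 had r = -0.915 and was number 6211.

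**Figure D1:**
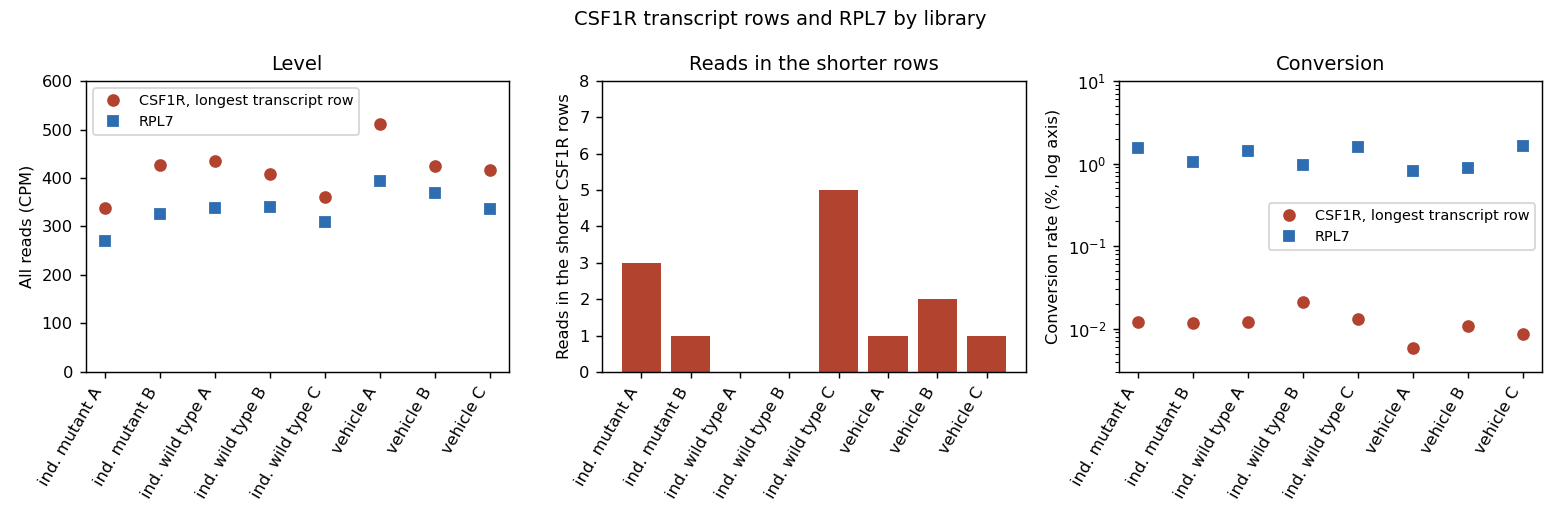
The 3 panels give, for each of the 8 libraries, the all-read level in CPM of the longest CSF1R row and of RPL7, the number of reads in the shorter CSF1R rows, and the conversion rate in percent on a log axis. CSF1R lies 1.15 to 1.31 times above RPL7 in level and 45.2 to 191 times below it in conversion, and the shorter rows hold at most 5 reads in a library.

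The conversion rate, given per transcript row in the tables, is low for CSF1R in all 8 libraries. It was 0.0122% and 0.0118% in induced mutant A and B, 0.0119%, 0.0211% and 0.0130% in induced wild-type libraries A, B and C, and 0.00580%, 0.0108% and 0.00863% in vehicle A, B and C. All 5 induced libraries were above the 3 vehicle libraries. All 8 libraries were labelled, so the rate without label, against which such low values could be read, is not known here. The rate of RPL7 was 1.55% and 1.04% in induced mutant A and B, 1.41%, 0.951% and 1.58% in induced wild-type libraries A, B and C, and 0.807%, 0.883% and 1.65% in vehicle A, B and C. RPL7 was thus 45.2 to 191 times above CSF1R, and its groups overlapped. The kit was stranded per the labels, and whether counting used strand is not given in the sources used here. A T-to-C change in RNA from one strand is an A-to-G change when read on the other.

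Genes of similar read number are given for scale, since CSF1R was chosen for its low conversion. Of 220 genes with a mean CPM within 2-fold of that of CSF1R, 0 had a lower mean conversion rate than its 0.0119%, and their median was 1.98%. With a window of 1.5-fold, 0 of 111 genes were lower and the median was 1.89%. The 5 genes nearest in CPM were EIF4A1, a translation initiation factor (4.42%), C5orf34 (1.20%), HLA-DRA, a class II antigen-presenting chain (1.82%), RPL36, a ribosomal protein (1.64%), and CHCHD2, a mitochondrial protein (1.36%). Among 699 genes with a mean of at least 100 CPM, CSF1R had the lowest conversion rate, and the next lowest had 0.0155%. CSF1R had no row in the converted-read table, as was true of 101 of these 699 genes (14.4%).

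**Figure D2:**
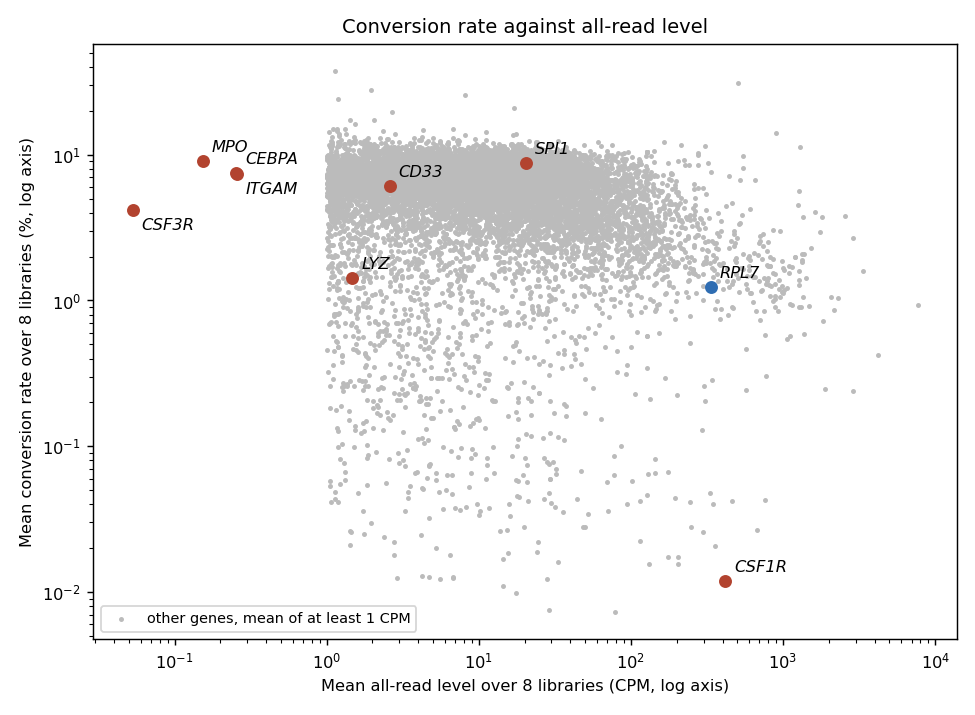
Each grey point is a gene with a mean of at least 1 CPM, at its mean all-read level (CPM, log axis) and mean conversion rate (%, log axis) over 8 libraries, leaving out 31 of 12467 genes with no conversion. The myeloid genes are red and RPL7 is blue. CSF1R lies at 415 CPM and 0.0119%, below RPL7 at 1.23%, and SPI1 lies at 20.5 CPM and 8.74%.

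Other genes that hold an RPL7 pseudogene were set beside CSF1R. Of the 10 with the highest mean CPM, NBEAL1 (630 CPM) had a conversion rate of 0.982%. Its RPL7 copy is annotated on its own strand. Only 321 positions of that 792-base copy aligned to the mRNA, 61.4% of them identical, with a longest exact run of 11 bases. Copies were aligned on their annotated strand only, so this value does not settle how far the copy has diverged. NBEAL1 also holds an opposite-strand processed pseudogene of another parent that reached 100 CPM. CSF1R had the second highest CPM. The other 8 genes lay between 9.25 CPM (NR3C1) and 44.6 CPM (RERE). WDR41, whose opposite-strand copy is 98.5% identical with a longest exact run of 138 bases, had 24.7 CPM and 3.05% conversion. PNPLA8, with a copy of 97.5% identity and a run of 179 bases on the opposite strand, had 10.6 CPM and 2.05%. RERE (7.70%), UBE2O (9.87%), C6orf106 (8.32%), CLEC16A (8.18%), TNRC6B (8.77%) and NR3C1 (6.82%) were higher in conversion. The copies in RERE, UBE2O, C6orf106 and TNRC6B were 82.8% to 93.3% identical. Those in CLEC16A (62.7%) and NR3C1 (63.4%) aligned over only 322 positions each, with a longest exact run of 11 bases, so the same limit applies. Of the hosts named whose copy aligned along most of its length, CSF1R held the copy nearest to the mRNA.

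Genes with a mean of at least 100 CPM that could be matched to the annotation were grouped by the processed pseudogenes inside them. The parent was read from the pseudogene symbol and had to reach 100 CPM, so copies named by clone were not counted. Such a copy lay on the opposite strand only in 33 genes. Their median conversion rate was 0.742%. It was 1.95% for 18 genes with such a copy on their own strand only and 2.73% for 632 genes with no copy counted. NBEAL1 (0.982%) held such copies on both strands. CSF1R was the lowest of the 33, which ranged up to 30.9%, so the class is broad. These genes were grouped with the conversion of CSF1R known, and no test was made.

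**Figure D3:**
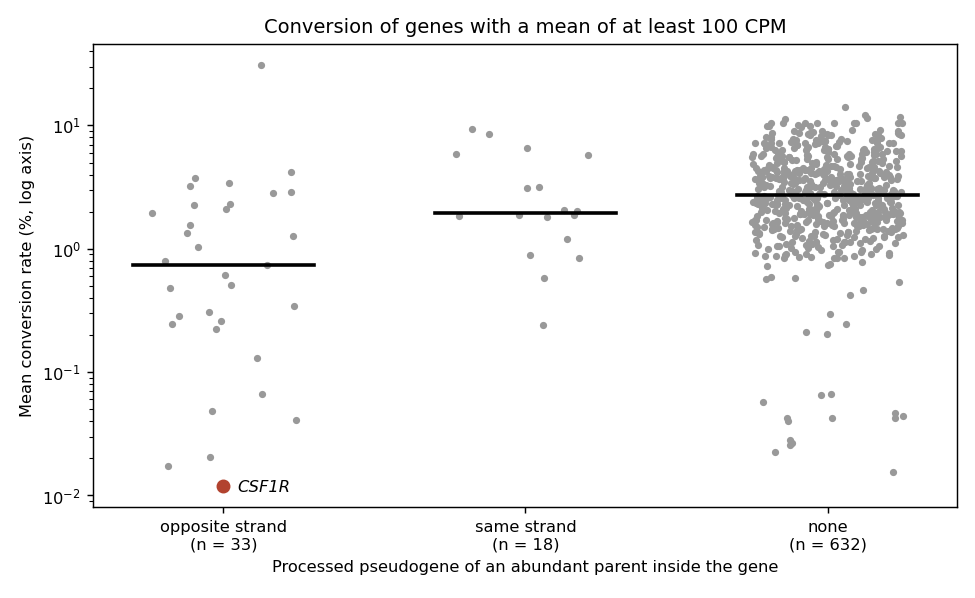
Points are genes with a mean of at least 100 CPM, with the mean conversion rate in percent on a log axis. They are grouped by processed pseudogenes inside them whose symbol names a parent at 100 CPM or more. Such a copy lies on the opposite strand (n = 33), the same strand (n = 18) or neither (n = 632). Copies named by clone are not counted, and NBEAL1, with copies on both strands, is not drawn. Black lines are medians, at 0.742%, 1.95% and 2.73%, and CSF1R is the lowest point of the opposite-strand group.

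Of the other 7 genes, SPI1, CD33 and LYZ reached a mean of 1 CPM, and CEBPA, MPO, ITGAM and CSF3R did not. Per kilobase of annotated gene span, mean levels were 6.91 CPM for CSF1R, 0.863 for SPI1, 0.250 for LYZ, 0.138 for CD33, 0.0968 for CEBPA, 0.0138 for MPO, 0.00353 for ITGAM and 0.00308 for CSF3R. In that order of levels per kilobase, SPI1 overlapped neither of its neighbours over the 8 libraries. LYZ overlapped CD33, CD33 overlapped CEBPA, MPO overlapped ITGAM and ITGAM overlapped CSF3R. The order depends on the length used. Per kilobase of exon, CD33 (2.54 CPM) was above LYZ (0.962 CPM) and ITGAM (0.0703 CPM) above MPO (0.0477 CPM), with CSF1R and SPI1 still highest. Fewer cells with a transcript and less of it per cell cannot be told apart in these bulk libraries.

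SPI1, on chromosome 11 (chr11:47354860-47378576, minus strand, GRCh38), was the transcription factor among the 8 genes with a clear signal. It had 25.6 and 20.3 CPM in induced mutant A and B, 21.5, 21.0 and 22.2 CPM in induced wild-type libraries A, B and C, and 14.3, 18.8 and 20.1 CPM in vehicle A, B and C. All 5 induced libraries were above the 3 vehicle libraries, and the relation of this level to the mean conversion rate of each library is given with the tests. Its conversion rate was 9.28% and 9.17% in induced mutant A and B, 9.19%, 6.88% and 10.2% in induced wild-type libraries A, B and C, and 7.72%, 9.07% and 8.42% in vehicle A, B and C. Unlike CSF1R, SPI1 lay among the bulk of genes in conversion, and it was the only one of the 8 with a row in the converted-read table. There, in units of FPKM, induced mutant A and B had 7.11 and 4.22, the induced wild-type libraries had 2.44, 1.47 and 3.07 (A, B, C), and the vehicle libraries had 0.52, 2.86 and 1.74 (A, B, C). Both mutant libraries were above the other 6 in converted reads.

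CEBPA, a factor of granulocyte commitment with a single exon, was near the limit of detection. It had 1 to 5 reads per library and 25 in all, with 0.317 ± 0.0392 CPM in the induced mutant (SD, n = 2), 0.297 ± 0.0583 CPM in the induced wild type (SD, n = 3) and 0.171 ± 0.0565 CPM in vehicle (SD, n = 3). A pair of antisense genes, AC008738.3 and AC008738.5, overlap it, and reads of the 2 strands cannot be told apart without strand. All 5 induced libraries lay above the 3 vehicle libraries, with 0.250 CPM in the lowest induced library and 0.225 CPM in the highest vehicle library. CEBPA was below the filter and was not tested.

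CD33, a sialic acid-binding receptor of myeloid progenitors, had 2.80 and 2.93 CPM in induced mutant A and B, 2.99, 2.13 and 2.39 CPM in induced wild-type libraries A, B and C, and 2.25, 2.26 and 3.04 CPM in vehicle A, B and C. The groups overlapped, over 17 to 54 reads per library. Its conversion rate was 5.43% ± 0.0710 in the induced mutant (SD, n = 2), 7.05% ± 1.76 in the induced wild type (SD, n = 3) and 5.58% ± 1.23 in vehicle (SD, n = 3). CSF3R, the receptor of granulocyte colony-stimulating factor, had 6 reads in all, spread over 4 of 8 libraries with no more than 3 in any. ITGAM, the integrin alpha chain CD11b, had 2 reads in each induced mutant library, 3 to 5 in the induced wild type and 1 to 3 in vehicle, 22 in all. Both receptors were below the filter and were not tested.

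Of the granule and secreted products, LYZ, which encodes lysozyme, had 2.22 and 1.38 CPM in induced mutant A and B, 1.39, 0.626 and 1.30 CPM in induced wild-type libraries A, B and C, and 1.69, 1.82 and 1.35 CPM in vehicle A, B and C. The groups overlapped. Its mean conversion rate of 1.42% over the 8 libraries rested on 142 reads, and was 0% in induced mutant B. An antisense gene, AC020656.1, overlaps its last part. MPO, the myeloperoxidase of neutrophil granules, had 14 reads, 1 to 4 per library.

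**Figure D4:**
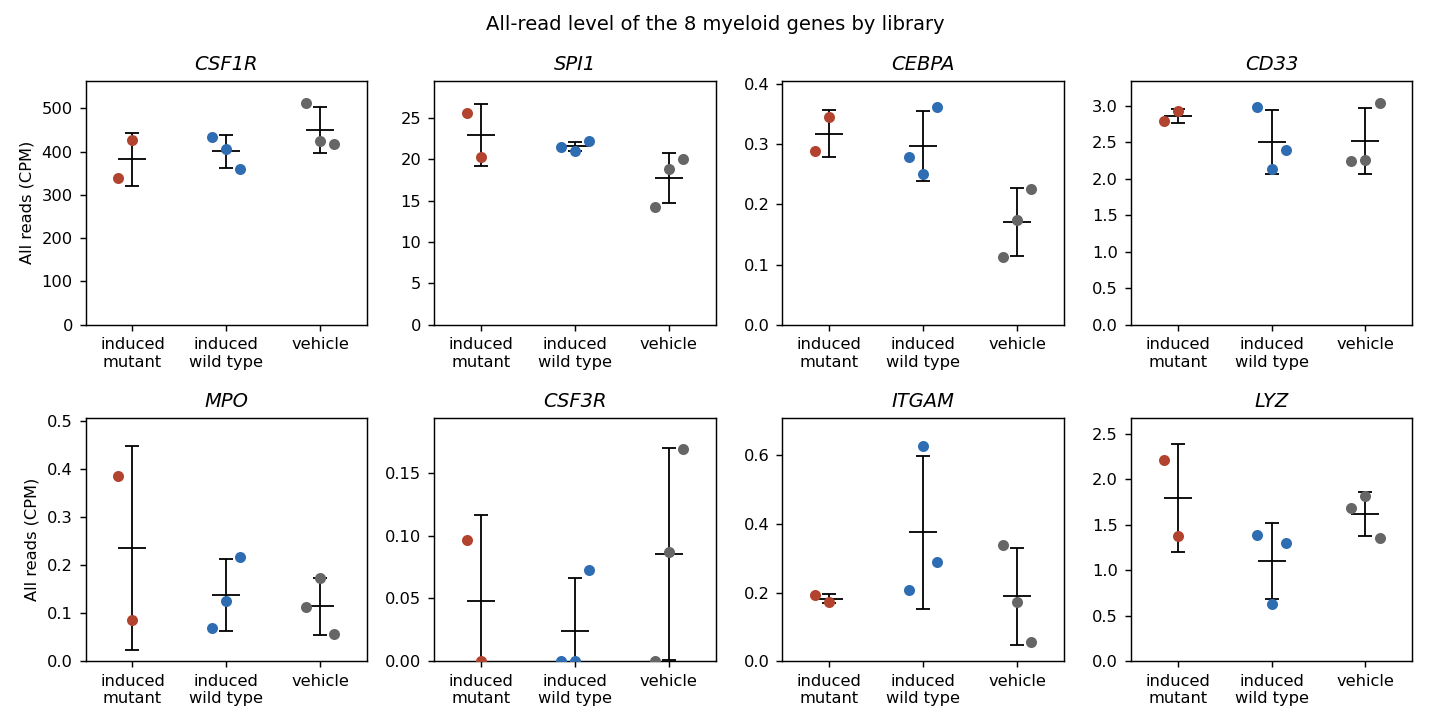
Each panel gives 1 gene's all-read level (CPM, linear axis from 0) in the induced mutant (n = 2), induced wild type (n = 3) and vehicle (n = 3) libraries, with the mean and SD in black. For SPI1 and CEBPA all 5 induced libraries lie above vehicle, with CEBPA resting on 1 to 5 reads per library, and for the other 6 genes induced and vehicle libraries overlap.

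Differences between groups were tested with limma over all genes with a mean of at least 1 CPM, on log2(CPM + 1) with Benjamini-Hochberg adjustment, and a gene was called at an adjusted p below 0.05. The 4 myeloid genes below 1 CPM did not pass the filter. In all reads, 0 of the 4 tested were called in any comparison by limma, edgeR or DESeq2, and by limma 0 of the 4 had an unadjusted p under 0.05. The share of all 12467 genes called was 0.0321% (4 genes) in the induced mutant against vehicle, 0.0321% (4 genes) in the induced mutant against the induced wild type and 0% (0 genes) in the induced wild type against vehicle. At an unadjusted p under 0.05, these comparisons had 467, 343 and 117 genes, so a count of 0 among 4 genes is near the background.

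For the longest CSF1R row the log2 fold change was -0.24 (SE 0.17, limma adjusted p = 0.9999) in the induced mutant against vehicle. It was -0.17 (SE 0.15, limma adjusted p = 0.992) in the induced wild type against vehicle and -0.07 (SE 0.17) in the induced mutant against the induced wild type. The sign of the last one turned to positive when libraries were centred on their median or scaled with edgeR or DESeq2 (0.06 to 0.08). RPL7 gave -0.30 (SE 0.15), -0.15 (SE 0.14) and -0.15 (SE 0.15) in the same 3 comparisons, and was not called either. The mean conversion rate over all genes, weighted by reads, was 4.65% and 3.41% in induced mutant A and B, 4.36%, 3.39% and 5.20% in induced wild-type libraries A, B and C, and 2.64%, 3.67% and 4.50% in vehicle A, B and C. Vehicle A, the library with the most CSF1R and RPL7 and the least SPI1, had the lowest mean rate. Over the 8 libraries, Pearson's r of the all-read level with this mean rate was -0.79 for CSF1R (Spearman's rho -0.67), -0.73 for RPL7 (rho -0.79) and 0.77 for SPI1 (rho 0.69). Without the 2 libraries farthest from the median rate, r was -0.47, -0.54 and 0.56 for CSF1R, RPL7 and SPI1. The conversion rate of RPL7 had r = 0.92 with the mean rate (rho 0.86), and that of SPI1 had r = 0.70 (rho 0.81). The conversion rate of CSF1R had r = 0.11 (rho 0.33). Without the same 2 libraries, these r were 0.93 for RPL7, 0.43 for SPI1 and -0.54 for CSF1R. These points share library and depth and are a description, and the part of the mean rate in the values was not tested.

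In all reads SPI1 differed by 0.36 on the log2 scale (SE 0.20, limma adjusted p = 0.9999) in the induced mutant against vehicle and 0.28 (SE 0.18, limma adjusted p = 0.992) in the induced wild type against vehicle. It was 0.07 (SE 0.20) in the induced mutant against the induced wild type, and -0.09 without induced mutant A. CD33 lay at 0.14, -0.01 and 0.15 in the induced mutant against vehicle, the induced wild type against vehicle and the induced mutant against the induced wild type, with SEs of 0.21 to 0.23. LYZ lay at 0.08, -0.33 and 0.41 in the same order, with SEs of 0.22 to 0.25. The comparisons share vehicle or induced wild-type libraries, so they are not independent of each other.

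New RNA was estimated as CPM multiplied by the conversion rate. As that rate is no share of reads, the product is an index and not an amount of new RNA. It was tested as log2(value + 0.1) for genes averaging 0.2 or more, after centring every library on its median. SPI1 was the only one of the 8 to pass that filter. It had 2.37 and 1.86 in induced mutant A and B, 1.97, 1.45 and 2.27 in induced wild-type libraries A, B and C, and 1.103, 1.71 and 1.69 in vehicle A, B and C. Its log2 fold change was 0.43 (SE 0.19, unadjusted p = 0.0457, limma adjusted p = 0.652) in the induced mutant against vehicle, 0.07 (SE 0.17, limma adjusted p = 0.984) in the induced wild type against vehicle and 0.36 (SE 0.19, limma adjusted p = 0.999) in the induced mutant against the induced wild type. It was not called. Of 9663 genes tested, 0.0414% (4 genes), 0.0207% (2 genes) and 0% (0 genes) were called in those comparisons, and 716, 301 and 288 genes had an unadjusted p under 0.05.

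In converted reads, tested on log2(FPKM + 1) with a mean of at least 1, the log2 fold change of SPI1 was 1.37 (SE 0.47) in the induced mutant against vehicle. Its unadjusted p was 0.0106 and its limma adjusted p 0.249. It was 0.37 (SE 0.42, limma adjusted p = 0.842) in the induced wild type against vehicle, and 1.00 (SE 0.47, limma adjusted p = 0.9999) in the induced mutant against the induced wild type. None of these passed. Of 5737 genes tested, 0.401% (23 genes) were called in the induced mutant against vehicle, where 678 had an unadjusted p under 0.05. The other 2 comparisons had 0% (0 genes) called, and 455 genes (induced wild type against vehicle) and 169 genes (induced mutant against induced wild type) had an unadjusted p under 0.05.

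**Figure D5:**
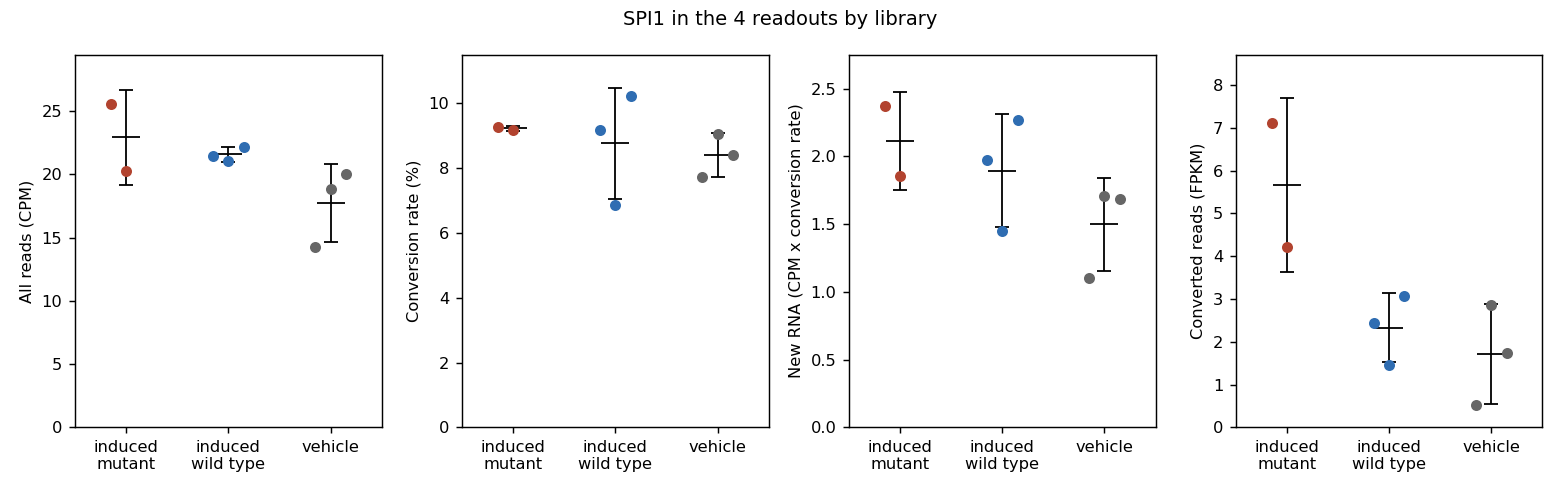
SPI1 is shown in all reads (CPM), conversion rate (%), new RNA (CPM multiplied by conversion rate) and converted reads (FPKM), for induced mutant (n = 2), induced wild type (n = 3) and vehicle (n = 3) libraries, with mean and SD in black. In converted reads both mutant libraries (7.11 and 4.22 FPKM) lie above the other 6 (0.52 to 3.07 FPKM), and in conversion rate the groups overlap.

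Conversion rates were compared by a two-sided exact permutation test over libraries for CSF1R and SPI1, the genes with at least 20 reads in every library. No p can go below 0.1 in these groups. For CSF1R, the induced mutant averaged 0.0120% ± 0.000282 (SD, n = 2), the induced wild type 0.0153% ± 0.00501 (SD, n = 3) and vehicle 0.00841% ± 0.00252 (SD, n = 3). The exact p was 0.2 for the induced mutant against vehicle, 0.1 for the induced wild type against vehicle and 0.6 for the induced mutant against the induced wild type. For SPI1 the induced mutant averaged 9.23% ± 0.0765 (SD, n = 2), the induced wild type 8.76% ± 1.71 (SD, n = 3) and vehicle 8.40% ± 0.672 (SD, n = 3), with exact p of 0.2, 0.8 and 0.9 in the same order of comparisons. Adjusted over the 6 tests, the lowest value was 0.4.

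The rest of the myeloid programme was read from lists. Of 14 myeloid transcription factors, 7 reached a mean of 1 CPM, led by MYB (35.2 CPM), RUNX1 (25.2 CPM), SPI1 (20.5 CPM) and JUNB (14.8 CPM), of which MYB and RUNX1 are also at work in early lymphoid cells. KLF4, a factor of monocytes, had no read. Of 14 granule and secreted products, 2 reached 1 CPM, CST3 (3.83 CPM), a cystatin made by most cells, and LYZ. ELANE, S100A8, S100A9, DEFA4 and RNASE2 had no read in any library, below the 3-read level of 0.169 to 0.376 CPM. This list summed to 5.09 to 5.88 CPM in the induced mutant, 4.88 to 6.05 CPM in the induced wild type and 5.85 to 6.60 CPM in vehicle.

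Of 23 myeloid surface receptors, 5 reached 1 CPM: ITGB2 (37.7 CPM), the shared beta chain of leukocyte integrins, CSF2RB (11.4 CPM), the shared beta chain of the IL-3 and GM-CSF receptors, IL3RA (8.76 CPM), CD68 (3.42 CPM) and CD33. The macrophage receptor CD163 and the Fc receptors FCGR1A and FCGR3A had no read. Of 5 class III receptor tyrosine kinases, the family of CSF1R, PDGFRA had 42.0 CPM, PDGFRB 3.49 CPM, KIT 0.406 CPM and FLT3 0.388 CPM. The conversion rate of PDGFRA was 6.08%, against 0.0119% for CSF1R. The ligands of CSF1R were near the limit of detection, CSF1 with 11 reads and IL34 with 42.

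No gene of the myeloid lists was called in all reads, new RNA or converted reads in any of the 3 comparisons. In all reads the 7 myeloid transcription factors had a median log2 fold change of -0.09 in the induced mutant against vehicle (all genes -0.04) and 0.08 in the induced wild type against vehicle (all genes 0.09). Of 13 tested genes of CSF1R ligands and signalling, among them CSF1R, GRB2 (74.9 CPM) and PIK3CD (40.2 CPM), 0 were called. In converted reads the 10 genes of that list had a median of 0.96 in the induced mutant against vehicle, where all genes had 0.17, and 0.82 in the induced wild type against vehicle, where all genes had 0.23. All 10 values were positive in both comparisons, which share vehicle, against 62.9% of all genes in the induced mutant and 73% in the induced wild type. CSF1R has no row in converted reads and is not among these 10. At an unadjusted p under 0.05 there were 6 of 10 in the induced mutant against vehicle, where all genes had 678 of 5737. In the induced wild type against vehicle there were 7 of 10, where all genes had 455 of 5737. By adjusted p, 0 of the 10 passed in either. In the induced mutant against the induced wild type the median was 0.24, with 8 of 10 positive, against -0.04 and 46.1% over all genes. Vehicle A, in the shared group, had the lowest mean conversion rate (2.64%), and its part in these values was not tested. GRB2, an adaptor downstream of many receptors, gave 0.96 (SE 0.39) and 0.79 (SE 0.35), and the kinase subunit PIK3CD 0.96 (SE 0.35) and 0.75 (SE 0.31). Only PAX5, a B-cell transcription factor among the precursor B-cell markers, was called in any list. It gave 1.79 (SE 0.37, limma adjusted p = 0.0445) in converted reads of the induced mutant against vehicle. Its adjusted p was 0.879 without induced mutant A, 0.103 without induced mutant B and 0.0815 without vehicle B. The call was also lost with a pseudocount of 0.1 (adjusted p = 0.181), with only the groups compared in the model (0.0881) and with no variance trend (0.211), all in limma.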

How the data were processed

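The 8 SLAM-seq libraries of NALM6 cells were made with a stranded mRNA kit, per the labels' protocols. The genome build was hg19 (GRCh37), per the submitters' processing notes. For the aligner, the conversion caller and the use of strand, the sources used here give nothing.

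The all-read columns, deposited as CPM signal per transcript (per the file headers), held whole multiples of 1 read in 100.0% of values within 0.1 read. The conversion columns were deposited as a fraction per transcript, shown here as percent. They are no share of reads, since 99.5% of rates above 0 on 1 read lay below 1. Converted reads were deposited as FPKM. All 3 were treated as the authors made them.

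Of 61177 rows, 25396 had no symbol, and 24843 of these were named through RefSeq (GRCh38.p14). A gene took its transcript row with the highest mean. GENCODE 29 gave annotation and pseudogene sequences.

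The test was limma 3.58.1 (R 4.3.3) with a variance trend, on all 8 libraries in a single model with no covariate. It was checked on simulated data. edgeR 4.0.16 and DESeq2 1.42.0 on the recovered reads, other pseudocounts, filters, scalings, row choices and each library left out were alternatives. Permutation tests used scipy 1.17.1. Replicates are biological per the labels, and p-values measure only the spread between these libraries.

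The genes, lists and tests were chosen with earlier results of these data known. Named genes are the 8, pseudogenes inside them and their parent, the 10 highest hosts of the same parent, the 10 most alike and the 5 nearest in CPM to CSF1R, and up to 4 per list by mean CPM plus any called. KLF4, the granule and receptor genes without reads, the 2 ligands and the members of a family given in full were named after their values were seen. A few others picked by this rule are not reported here.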

Additional observations from a re-analysis of the deposited data

How the results depend on the processing

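Over 41 results and 484 alternative values, 461 kept their direction and side of the threshold (for values with no test, stayed within 1 SD). None of the myeloid genes that entered a test was called under any alternative run. These were 4 genes in all reads, and SPI1 alone in new RNA and in converted reads, except that all 8 entered without a filter in all reads and new RNA, and 2 entered at a mean of at least 5 CPM. The level of CSF1R moved with the choice of transcript row. As a mean over its rows it was 127 CPM in the induced mutant, 134 CPM in the induced wild type and 150 CPM in vehicle, and in the shorter rows, an alternative chosen after seeing the data, 0.188, 0.121 and 0.114 CPM. Its conversion rate as a mean over rows was 1.71%, 0.342% and 0.00280%, because the shorter rows rest on few reads. The CSF1R log2 fold change in the induced mutant against the induced wild type turned positive with median centring (0.059), edgeR with TMM (0.075), edgeR with DESeq2 size factors (0.080) and DESeq2 (0.080), and ranged from -0.24 to 0.092 when 1 library was left out. Leaving out 1 library also gave ranges that crossed 0 for CD33 in all reads, induced wild type against vehicle (-0.10 to 0.10), LYZ in all reads, induced mutant against vehicle (-0.14 to 0.30), SPI1 in all reads, induced mutant against induced wild type (-0.086 to 0.24), and SPI1 in new RNA, induced wild type against vehicle (-0.035 to 0.15). The difference of SPI1 conversion ranged from -0.370 to 1.30 percentage points for the induced wild type against vehicle and from -0.475 to 1.19 for the induced mutant against the induced wild type. The cause was not tested. The 23 genes called in converted reads of the induced mutant against vehicle became 0 with no variance trend (chosen after seeing the data), 1 with a pseudocount of 0.1, 41 with median centring, 2 with only those groups, 149 with a replicate block, and 0 to 68 with 1 library left out. In all reads of that comparison 4 genes became 75 with DESeq2, and in new RNA 80 with no filter. Libraries with the same replicate letter did not deviate together throughout (r of 0.287, -0.356 and 0.649 for A, B and C in the induced wild type and vehicle). These are deviations from the means of very small groups, so the r values cannot decide whether the letters mark pairs. With the replicate block, 0 of the 4 genes tested in all reads were called, and SPI1 was called in neither other readout. Depth limits CEBPA, MPO, ITGAM and CSF3R, at 6 to 25 reads in all libraries together.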

Other observations

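Other genes shared the pattern of CSF1R. Of 699 genes with a mean of at least 100 CPM, 23 (3.29%) had a mean conversion rate below 0.1%, a limit set after the values were seen. Besides CSF1R they include FAM190A (359 CPM, 0.0207%), which holds the opposite-strand pseudogene TMSB4XP8, LINC02067 (175 CPM, 0.0174%) with RPL23AP42, PTPRG (244 CPM, 0.0413%), a receptor tyrosine phosphatase, with RPL10AP6, and DTWD2 (331 CPM, 0.0482%) with PTMAP2. None of the 23 had a row in the converted-read table. Of the 20 matched to the annotation, 15 held a processed pseudogene of any parent on the opposite strand, against 57 of 664 (8.58%) of the other matched genes. The plot of conversion by pseudogene class counts only copies whose symbol names a parent that reached 100 CPM. By that count, 6 of the 20 held one on the opposite strand and the other 14 had no copy counted. Among these 14 are genes with an opposite-strand copy named by clone, whose parent was not assigned, such as ZNF141, EPHA5 and FAM69A. Genes without any processed pseudogene had the pattern too, among them MIF-AS1 (678 CPM, 0.0265%), IQCG (462 CPM, 0.0424%), SNX22 (346 CPM, 0.0403%) and RSPO1 (102 CPM, 0.0576%). Whether genes of other kinds overlap them on the opposite strand was not looked up. These genes were picked for their values, and no test was made.

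IL3RA, the alpha chain of the IL-3 receptor, had 8.76 CPM with a conversion rate of 0.236%, while its partner CSF2RB had 11.4 CPM with 7.36%. This pair was chosen after its values were seen.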
